A study of Mus musculus with 6 samples.

Results

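The genes described here are the cytosolic and mitochondrial molecular chaperones of mouse brain cells, taken by their symbols from the deposited expression table: the Hsp90, Hsp70, Hsp110 and small heat shock protein genes, the mitochondrial chaperonin genes, the Cct subunit genes and the J protein genes of classes A, B and C. The rule took symbols that begin with Hsp and a, b, d, e, h or 9, with Dnaja, Dnajb or Dnajc, or with Cct and a digit. It left out Hspa5, Hsp90b1, Dnajb11 and Dnajc3, which act in the endoplasmic reticulum, and pseudogenes. It found 79 of the 26264 genes in the table. The rule reads symbols and not location, so 10 residents of the endoplasmic reticulum (Hspa13, Dnajb9, Dnajb12, Dnajb14, Dnajc1, Dnajc10, Dnajc14, Dnajc16, Dnajc18 and Dnajc25) are among them. Hspbp1 and Hspbap1, which bind chaperones, and Hspb11, also known as the ciliary transport subunit Ift25, came in by name as well.

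Chaperones help other proteins to fold and keep unfolded chains from clumping. J proteins hand unfolded chains to Hsp70, which grips and releases them with ATP. Hsp110 exchanges the nucleotide on Hsp70, Hsp90 finishes many kinases and steroid receptors, and the barrel-shaped chaperonins enclose actin, tubulin and other chains. Small heat shock proteins hold damaged proteins without using ATP. When unfolded protein builds up, the transcription factor Hsf1 binds heat shock elements, inverted repeats of a GAA unit, and raises the inducible members. In the brain, the constitutive Hsc70 encoded by Hspa8 is abundant in neurons, and astrocytes are known to make small heat shock proteins.

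The 6 libraries hold ribosome-bound polyA RNA from brains of Gfap-Cre; RiboTag mice, 3 on control diet and 3 fed PLX5622 at 1200 ppm, each for 1 month. PLX5622 inhibits Csf1r, the receptor on which microglia depend, and the series asks about cholesterol pathways in the captured cells. Every mouse in both groups carried the same Cre driver and ribosome tag. Gfap drives Cre in astrocytes and in some progenitors, and the labels state that neurons and oligodendrocytes were captured as well. Ages are not given in these labels. The labels call the libraries biological replicates but do not tie them to animals, so p-values measure the spread between these libraries.

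Levels are in TPM, reads scaled by gene length and by the library total, so the read depth of each library is unknown. Marker genes fitted the labelled cells: 12 astrocyte genes summed to between 24989.7 and 35192 TPM on control diet and between 39889 and 44519 TPM on PLX5622. The 12 neuron genes summed to 2502 to 2987 TPM and to 1550.2 to 2359 TPM, and the 8 oligodendrocyte genes to 3320 to 4312 TPM and to 2933 to 3956 TPM. Microglial transcripts went against the labels of 2 libraries, and the 10 microglial genes summed to 121, 76.0 and 35.4 TPM in control 1 to 3 and to 37.4, 28.4 and 51.3 TPM in PLX5622 1 to 3. Csf1r was at 0.118 TPM in the library labelled control 3 and at 2.05 TPM in the one labelled PLX5622 3. Libraries are therefore named by their labels throughout. The counts called and the median chaperone difference are also given without those 2 libraries. Differences and overlaps of single genes rest on the labels as given.

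Of the 79 genes, 69 reached a mean of 1 TPM over the 6 libraries and were tested. The other 10 were Hspa12b, Hspb7, Hspb9, Cct6b, Cct8l1, Dnajb7, Dnajb8, Dnajc5b, Dnajc5g and Dnajc22, and Dnajc5g was listed at 0 in all 6 libraries. Among the tested genes, 19 had a mean of at least 100 TPM, 35 lay between 10 and 100 TPM, and 15 between 1 and 10 TPM. Together the 79 genes took 0.771%, 0.740% and 0.736% of all TPM in control 1 to 3, and 0.712%, 0.901% and 0.764% in PLX5622 1 to 3. The share in PLX5622 2 stood above the other 5, and the 2 diets overlapped. Hspa8 and Hsp90ab1 alone made up between 35.2% and 43.0% of that sum in each library.

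Promoters of 5 of the 12 genes that stood out in PLX5622 2 are shown first, because heat shock elements are the sequences through which Hsf1 is known to act. The 5 were picked as heat-inducible genes that hold such a match, and of the 11 with a window 4 hold none, Dnajb1 among them. Each window runs from 250 bases before to 50 bases after an annotated gene start, as given by RefSeq on GRCm38.p6, a build older than the authors' mm39. Windows were found for 64 of the 79 genes. They were searched on both strands for a pair of facing units, GAANNTTC or TTCNNGAA, and for a run of 3 such units, each inverted against the last, which always contains a pair. In the stretches that follow, the capitals mark the paired units, and every base shown lies before the gene start.
Hspa1a: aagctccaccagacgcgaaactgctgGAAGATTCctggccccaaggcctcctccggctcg
Hspa1b: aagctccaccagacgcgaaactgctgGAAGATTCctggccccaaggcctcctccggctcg
Hsph1: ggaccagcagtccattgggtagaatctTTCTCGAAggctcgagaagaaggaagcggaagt
Dnaja1: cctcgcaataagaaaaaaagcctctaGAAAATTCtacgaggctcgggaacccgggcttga
Dnajb4: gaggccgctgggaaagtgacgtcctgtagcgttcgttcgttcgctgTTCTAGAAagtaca

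On GRCm38.p6 these stretches are chr17:34972227-34972286 for Hspa1a, chr17:34959309-34959368 for Hspa1b and chr5:149636337-149636396 for Hsph1, all on the minus strand. The Dnaja1 stretch is chr4:40722318-40722377 on the plus strand, and that of Dnajb4 is chr3:152193846-152193905 on the minus strand. The Hspa1a and Hspa1b stretches are identical, and their whole windows share 296 of 300 aligned bases. The pair began 104 bases before the start in both, 33 bases before it in Hsph1, 124 in Dnaja1 and 14 in Dnajb4.

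Hspe1 and Hspd1, which encode the mitochondrial Hsp10 and Hsp60, are transcribed away from each other from starts 216 bases apart. The bases between their starts, chr1:55087933-55088147 on GRCm38.p6, are shown on the plus strand, that of Hspe1, with the capitals marking the longer run of facing units.
Hspe1-Hspd1: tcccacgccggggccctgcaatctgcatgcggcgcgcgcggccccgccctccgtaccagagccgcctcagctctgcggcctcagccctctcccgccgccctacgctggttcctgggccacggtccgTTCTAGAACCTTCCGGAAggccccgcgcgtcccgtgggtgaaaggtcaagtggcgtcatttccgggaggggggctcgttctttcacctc

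A pair of facing units occurred in the windows of 20 of the 64 chaperone genes (31.2%) and in 17.0% of all 27025 genes with a window. The run of 3 units occurred in 4 of the 64 (6.25%: Dnajb6, Hspd1, Hspe1 and Hsph1) and in 0.662% of all genes. In Hsph1 the run lay after the start. These matches are letters in a window and not measured binding, and a window without a match says nothing about the factor.

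No chaperone gene passed the test between the diets as labelled. The test was limma on log2(TPM + 1), two-sided, with Benjamini-Hochberg adjustment over all 13084 tested genes and a threshold of 0.05. It called 0 chaperone genes in either direction, and 0% of all tested genes as higher and 0% as lower. The smallest adjusted p among the chaperones was 0.205 by limma. Before adjustment, a p under 0.05 was found for 8 chaperone genes with a higher and 4 with a lower mean on PLX5622, that is 12 of 69. The same held for 14.7% of all tested genes in the higher and 8.02% in the lower direction. The 3 PLX5622 libraries lay wholly above the 3 control libraries for 10 chaperone genes and wholly below them for 8, against 19.4% and 9.39% of all tested genes. The counts of the chaperones were thus near the background in both directions.

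The fitted differences of the 69 genes, PLX5622 minus control, had a median of 0.074 on the log2 scale, with 41 positive and 28 negative, beside a median of 0.089 over all tested genes. After scaling by size factors the 2 medians were -0.035 and -0.0064, so the sign of the middle chaperone depends on the scaling. Summed over all 79 genes, the level was 7489 ± 189 TPM on control diet and 7922 ± 974 TPM on PLX5622 (SD, n = 3). In bulk RNA of this kind, fewer cells of a type and less RNA per cell cannot be told apart.

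**Figure D1:**
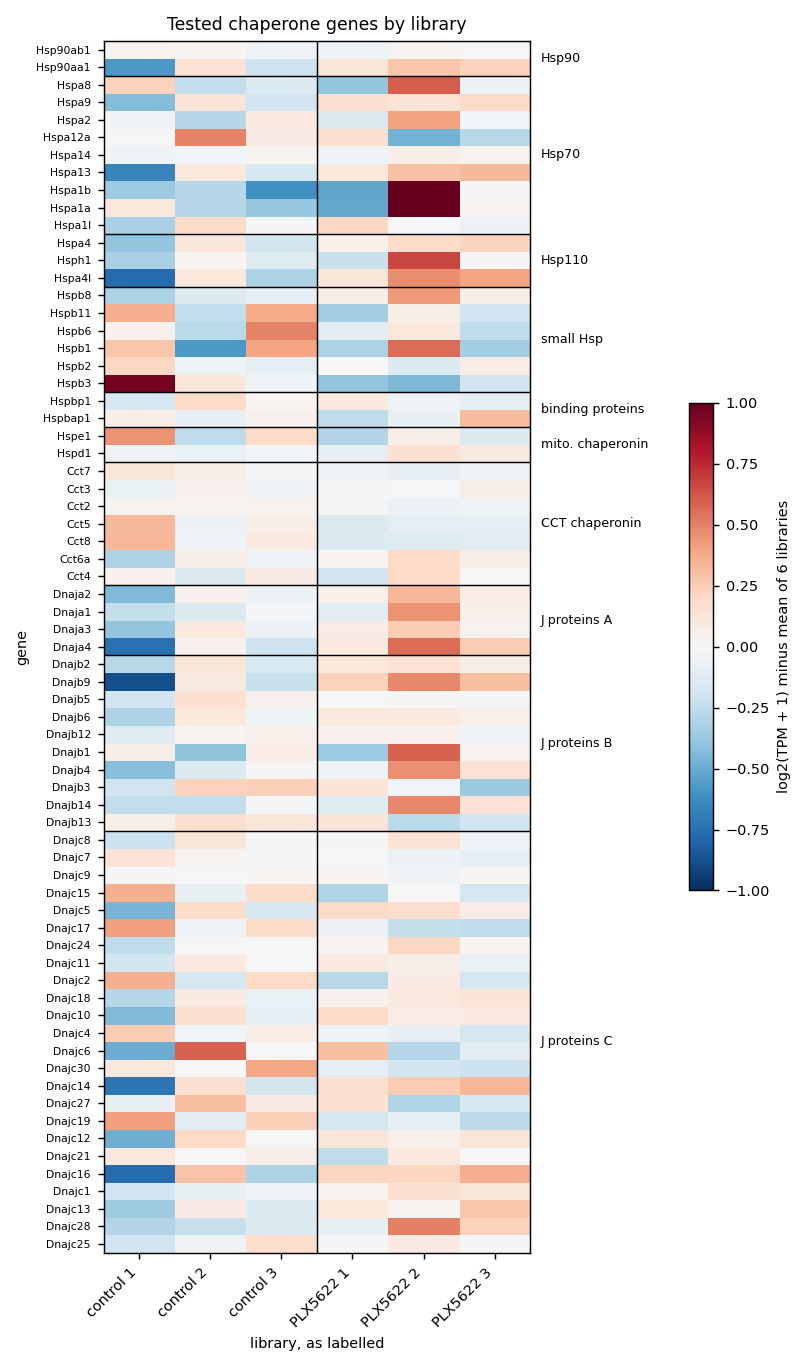
Level of each of the 69 tested chaperone genes in each of the 6 libraries, as log2(TPM + 1) minus the mean of the gene over the 6 libraries, in rows grouped by family and columns by label; the colour scale ends at -1 and 1. The strongest colours fall mostly in control 1 and PLX5622 2.

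The inducible genes were highest in the single library PLX5622 2. Hspa1b, one of the near-identical genes for the inducible cytosolic Hsp70, was at 2.52, 2.71 and 1.96 TPM in control 1 to 3 and at 2.16, 14.6 and 3.49 TPM in PLX5622 1 to 3. Its twin Hspa1a was at 4.06, 2.87 and 2.61 TPM and at 2.30, 8.64 and 3.80 TPM. Both genes were high in PLX5622 2 alone, and PLX5622 1 lay within or below the control libraries. Because the coding sequences are nearly the same, the split of reads between the 2 genes is uncertain, and their sum was 6.58, 5.58 and 4.57 TPM in the control and 4.46, 23.2 and 7.29 TPM on PLX5622.

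The fitted difference was 0.84 ± 0.48 (SE) for Hspa1b and 0.37 ± 0.33 (SE) for Hspa1a, with adjusted p of 0.294 and 0.485 by limma. Without PLX5622 2 these became 0.16 and -0.055, so for Hspa1a the sign turned. In the authors' deposited table Hspa1b had the largest positive log2 fold change of the tested chaperones, 1.07 with a standard error of 0.93.

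Hsph1, an Hsp110 that recharges Hsp70, was at 46.0, 58.8 and 53.0 TPM on control diet and at 49.5, 92.5 and 57.1 TPM on PLX5622. Apart from PLX5622 2 its values overlapped between diets, and its difference fell from 0.28 ± 0.22 (SE) to 0.022 without that library. Dnajb1, the J protein Hsp40 that works with inducible Hsp70, was at 27.1, 19.2 and 27.2 TPM and at 19.7, 39.3 and 26.4 TPM. Dnaja1, a farnesylated J protein of the cytosol, was at 81.9, 87.7 and 95.1 TPM and at 89.2, 132 and 100.2 TPM. In both J protein genes PLX5622 2 was the highest library, and the other PLX5622 libraries lay within or close to the control range.

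Hspa8, the constitutive Hsc70 and the most abundant gene of the set, followed the same order at its top. It was at 2031, 1455 and 1567 TPM in control 1 to 3 and at 1321, 2627 and 1661 TPM in PLX5622 1 to 3. The lowest and the highest library both carried the PLX5622 label. Its difference of 0.11 ± 0.24 (SE) became -0.17 without PLX5622 2.

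The 12 genes taken here as heat-inducible were Hspa1a, Hspa1b, Hspa8, Hspa4l, Hsph1, Hsp90aa1, Hspb1, Hspd1, Hspe1, Dnaja1, Dnajb1 and Dnajb4. The choice is loose, as it holds the constitutive Hspa8 and leaves out Dnaja4, described below as heat-responsive. In 11 of the 12 the highest library was PLX5622 2, the exception being Hspe1, and 23.1% of all tested genes had their highest value there. PLX5622 2 was over 1.2 times the highest other library in 12 of the 69 chaperone genes, against 2.93% of all tested genes, and in 7 of the 12 inducible ones. The ratio was 4.18 for Hspa1b, 2.13 for Hspa1a, 1.57 for Hsph1, 1.45 for Dnajb1 and 1.32 for Dnaja1. It was 1.29 for Hspa8 and for the small heat shock protein gene Hspb8, and between 1.24 and 1.32 for Dnajb14, Dnajb4, Dnaja4, Dnajc28 and Hspa2. No other library exceeded the rest by that margin in more than 2 chaperone genes. The margin and the library were chosen after the values were seen, so these counts are a description of 1 library.

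**Figure D2:**
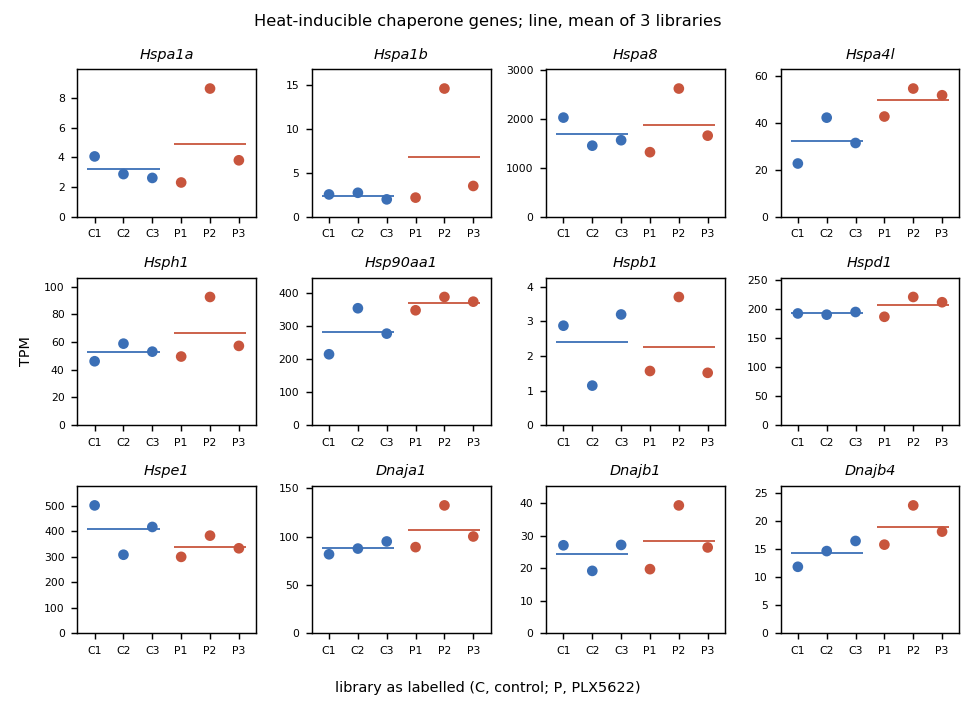
TPM of the 12 heat-inducible chaperone genes in each library, control (C1 to C3) and PLX5622 (P1 to P3), with the mean of the 3 libraries of each diet as a line. P2 is the highest point in 11 panels, with Hspa1b at 14.6 TPM and Hspa8 at 2627 TPM, whereas P1 and P3 mostly lie near the control points.

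The median difference of the 12 inducible genes was 0.27, with 10 positive, and 0.034 without PLX5622 2, with 7 positive, while the median of all tested genes moved from 0.089 to 0.098. Of the 12 genes over the 1.2-fold margin, 11 had a promoter window and 7 of those held a pair of facing units. A pair occurred in 31.2% of chaperone genes and 17.0% of all genes with a window. Of the 12 inducible genes, 10 had a window and 8 of those held a pair, whatever their level in PLX5622 2. Any part of Hsf1 in these values was not tested. Of the 4 genes with the run of 3 units, Hsph1 and Hspd1 had their highest value in PLX5622 2, Hspe1 in control 1 and Dnajb6 in control 2. Of the 52 tested genes with a window but no run, 21 were highest in PLX5622 2. The 4 chaperones of the endoplasmic reticulum that the rule leaves out were also highest in this library. Hspa5, the Hsp70 of that compartment, reached 685 TPM in it against 252 to 374 TPM in the other 5. Hsp90b1 was at 501 TPM in it and at 492 TPM in PLX5622 3. Of the 10 residents of that compartment within the set, 3 were highest in PLX5622 2, against 23.1% of all tested genes. PLX5622 2 also held the lowest summed levels of the neuron, oligodendrocyte and microglial genes among the 6 libraries. The part of these in the chaperone values was not tested.

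The Hsp90 pair behaved unlike each other. Hsp90ab1, the constitutive cytosolic form, was at 1254, 1241 and 1181 TPM on control diet and at 1187, 1247 and 1225 TPM on PLX5622. Its coefficient of variation over the 6 libraries, 2.58%, was the lowest of the 69 genes after that of Dnajc9 (1.63%). Its difference was -0.0059 ± 0.12 (SE). Hsp90aa1, the inducible form, was at 214, 353 and 276 TPM and at 347, 387 and 373 TPM. Control 1 was low, control 2 lay within the PLX5622 range, and the difference was 0.42 ± 0.18 (SE) with an adjusted p of 0.211 by limma. Without control 1 it was 0.24.

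Among the other Hsp70 genes, Hspa9, the mitochondrial Hsp70 mortalin that pulls imported chains into the matrix, was at 267, 393 and 315 TPM in control 1 to 3 and at 405, 396 and 412 TPM in PLX5622 1 to 3. The diets did not overlap, but control 2 lay within 1% of the lowest PLX5622 library, and the adjusted p was 0.225 by limma. Hspa13, a microsomal Hsp70, was at 9.53, 17.0 and 13.7 TPM and at 16.9, 19.4 and 19.9 TPM. Hspa12a, a distant relative of Hsp70, was the only tested Hsp70 gene with a negative difference (-0.39 ± 0.20, SE), at 16.2, 23.3 and 17.2 TPM and at 18.2, 11.4 and 13.1 TPM. Of the 9 tested Hsp70 genes, 8 had a positive difference, and 5 without PLX5622 2.

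All 3 Hsp110 genes had positive differences. Hspa4l, which encodes the testis- and brain-expressed Apg-1, had the smallest p of any chaperone, with 22.7, 42.3 and 31.5 TPM on control diet and 42.8, 54.8 and 51.9 TPM on PLX5622. The groups did not overlap, although control 2 lay just below PLX5622 1. The difference was 0.65 ± 0.21 (SE) with an unadjusted p of 0.0119 and an adjusted p of 0.205 by limma. Hspa4, the broadly expressed Apg-2, was at 62.5, 89.1 and 72.4 TPM and at 85.1, 94.0 and 96.0 TPM, with overlap through control 2.

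Small heat shock protein genes were mixed. Hspb8, a partner of Bag3 in clearing aggregates, was the most abundant of those the rule took. Cryab, whose symbol the rule does not cover, had a mean of 360 TPM over the 6 libraries. Hspb8 was at 112, 127 and 131 TPM in control 1 to 3 and at 146, 188 and 146 TPM in PLX5622 1 to 3. The groups did not overlap, and the difference was 0.37 ± 0.14 (SE) with an adjusted p of 0.205 by limma. It was 0.24 without PLX5622 2 and 0.40 after correction for transcript length. Hspb3, best known from muscle, was at 2.74, 1.09 and 0.882 TPM and at 0.469, 0.413 and 0.684 TPM. This gene lay lower in all 3 PLX5622 libraries, with a difference of -0.69 ± 0.24 (SE), at a level close to the filter and with control 1 far above the rest.

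Hspb1, the inducible Hsp27, scattered within both diets, at 2.88, 1.14 and 3.20 TPM and at 1.57, 3.71 and 1.51 TPM. Hspb6, or Hsp20, was at 15.4, 12.2 and 21.4 TPM and at 13.7, 16.1 and 12.4 TPM. Neither showed an order by diet. Hspb11 was at 32.6, 21.0 and 32.7 TPM and at 19.4, 26.1 and 21.8 TPM, and its difference of -0.33 ± 0.19 (SE) became 0.033 after correction for the longest transcript and -0.25 after correction for the union of all exons. Of the binding proteins, Hspbp1, which releases nucleotide from Hsp70, had a mean of 92.1 ± 11.6 TPM on control and 89.6 ± 6.32 TPM on PLX5622, and Hspbap1 had 2.39 ± 0.175 and 2.40 ± 0.709 TPM (SD, n = 3).

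The chaperonins were abundant, and coefficients of variation over the 6 libraries ran from 2.86% for Cct2 to 13.6% for Cct8 among the Cct genes, beside a median of 15.0% for tested genes over 10 TPM. The 7 tested Cct genes, whose products form the cytosolic barrel with Tcp1, had means over the 6 libraries between 126 and 231 TPM, and summed to 1224 ± 38.0 TPM on control and 1166 ± 22.9 TPM on PLX5622 (SD, n = 3). In 4 of them the PLX5622 libraries lay wholly below the control libraries, as they did in 9.39% of all tested genes. Tcp1, whose symbol the rule does not cover, overlapped between the diets. It was at 114, 82.8 and 99.7 TPM in control 1 to 3 and at 78.7, 91.8 and 86.9 TPM in PLX5622 1 to 3. Cct8 was at 198, 152 and 167 TPM and at 142, 143 and 145 TPM. Cct5 was at 211, 162 and 176 TPM and at 152, 158 and 157 TPM.

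In both of these subunits control 1 was the highest library, and the PLX5622 values lay close together. Cct7 was at 251, 240.4 and 229 TPM and at 222, 217 and 224 TPM, and Cct2 at 187, 185 and 186 TPM and at 184, 175 and 177 TPM. The 4 differences ran from -0.25 ± 0.13 for Cct8 to -0.062 ± 0.11 for Cct2 (SE), and the smallest adjusted p was 0.252 by limma. Without control 1 the differences of Cct8 and Cct5 were -0.15 and -0.12. In Cct2 the lowest control and the highest PLX5622 library almost met. The other 3 subunits were mixed: Cct6a had 0.19 ± 0.13 (SE), Cct3 0.040 ± 0.11 (SE) and Cct4 0.0086 ± 0.14 (SE).

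**Figure D3:**
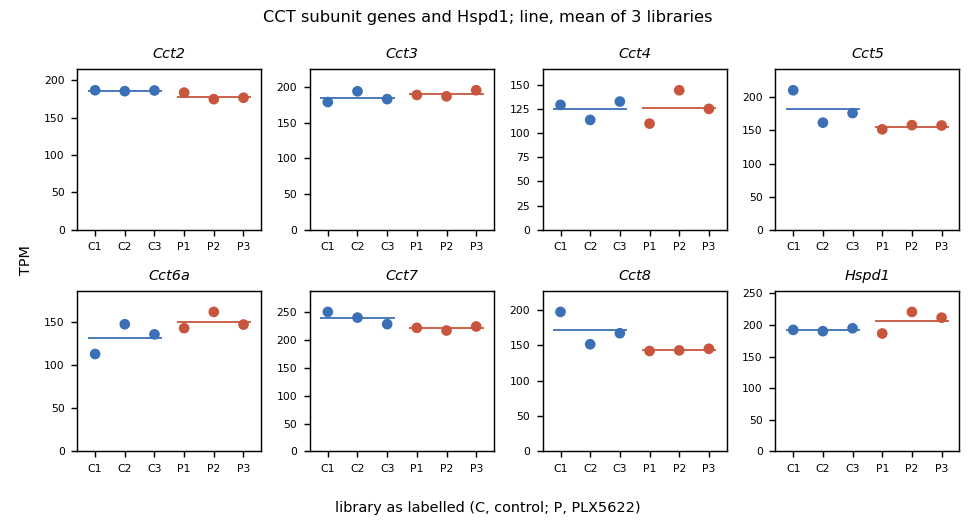
TPM of the 7 tested Cct genes and of Hspd1 in each library, control (C1 to C3) and PLX5622 (P1 to P3), with the mean of 3 libraries as a line; each axis starts at 0. For Cct2, Cct5, Cct7 and Cct8 the 3 PLX5622 points lie below the 3 control points, whereas Cct3, Cct4, Cct6a and Hspd1 overlap.

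The 2 genes that share the promoter shown above are described side by side. Hspe1, the Hsp10 lid of the mitochondrial chaperonin, was at 500.4, 308 and 416 TPM in control 1 to 3 and at 299, 382 and 333 TPM in PLX5622 1 to 3. Hspd1, the Hsp60 barrel, was at 192, 190.1 and 195 TPM and at 186, 221 and 211 TPM. In both genes PLX5622 1 was the lowest library, control 2 the next, and PLX5622 2 the highest of the PLX5622 libraries. Hspe1 was highest in control 1 and control 3, where Hspd1 was close to its level in control 2, and it varied over the libraries with a coefficient of variation of 20.6%, while that of Hspd1 was 6.82%. The longest annotated transcript of Hspe1 has 774 bases and that of Hspd1 2423 bases. After correction for transcript length the Hspe1 difference moved from -0.25 ± 0.18 (SE) to 0.051, and to -0.082 when the union of all exons was taken as the length. It was -0.089 without control 1. That of Hspd1 was 0.096 ± 0.12 (SE), and 0.036 after the correction for the longest transcript.

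All 4 class A J protein genes had positive differences, between 0.24 and 0.61. Dnaja4, a heat-responsive J protein of the cytosol, was at 19.6, 34.6 and 28.8 TPM on control diet and at 36.0, 49.7 and 40.1 TPM on PLX5622, and the groups did not overlap. Its difference was 0.61 ± 0.21 (SE) with an adjusted p of 0.205 by limma. Dnaja2, a cytosolic J protein that supports refolding, was at 76.8, 108 and 101 TPM and at 109, 132 and 111 TPM. Here control 2 and PLX5622 1 almost met, and the adjusted p was 0.254 by limma.

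In class B, Dnajb9, the stress-induced J protein ERdj4 of the endoplasmic reticulum, was at 23.9, 47.7 and 38.1 TPM in control 1 to 3 and at 52.4, 62.5 and 55.3 TPM in PLX5622 1 to 3. Its groups did not overlap, and the difference of 0.67 ± 0.22 (SE) had an adjusted p of 0.205 by limma. It stayed at 0.61 after correction for transcript length and at 0.60 without PLX5622 2. The 10 residents of the endoplasmic reticulum all had positive differences, with a median of 0.29, and 6 of them after the length correction, with a median of 0.074. Dnajb2, a J protein abundant in neurons, was at 108, 143 and 118 TPM and at 141, 145 and 136 TPM, with overlap through control 2.

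Class C J proteins, the most varied class, had 13 positive and 11 negative differences. Dnajc8, of the spliceosome, and Dnajc7, which bridges Hsp70 and Hsp90, were the most abundant and overlapped between diets. Dnajc28 was at 4.46, 4.69 and 5.08 TPM and at 5.36, 8.47 and 6.84 TPM, with no overlap and a difference of 0.44 ± 0.17 (SE). Dnajc18 had a difference of 0.18 ± 0.13 (SE), which was -0.037 after the length correction and 0.025 with the union of exons as the length.

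Class C also holds J proteins of synapses. Dnajc5, the cysteine string protein of synaptic vesicles, was at 49.5, 78.1 and 61.5 TPM under the control label and at 78.9, 77.5 and 72.5 TPM under PLX5622. Dnajc6, or auxilin, which helps Hsc70 strip clathrin from vesicles, was at 12.5, 27.7 and 18.0 TPM and at 22.4, 14.7 and 16.6 TPM. Control 2 was high and control 1 low in both, and the diets overlapped. The summed neuron genes were also highest in control 2, at 2987 TPM, and lowest in PLX5622 2. Hspa12a, Dnajc27 and Dnajb13 had their highest values in control 2 and their lowest in PLX5622 2. Of all tested genes, 18.9% were highest in control 2 and 17.1% were lowest in PLX5622 2. The part of neurons in these values was not tested.

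Several mitochondrial genes of the class, and Dnajc17, had negative differences. Dnajc17, a J protein with an RNA-recognition motif, was at 50.3, 36.2 and 42.8 TPM on control diet and at 36.0, 31.7 and 31.3 TPM on PLX5622. Dnajc30, a mitochondrial J protein, was at 19.6, 18.1 and 24.1 TPM and at 16.9, 15.9 and 15.5 TPM. In both genes the groups did not overlap, and for Dnajc17 the margin between control 2 and PLX5622 1 was under 1%. Dnajc19 and Dnajc15, J proteins tied to the import motor of the inner membrane, had overlapping groups. Dnajc19 was at 19.8, 13.6 and 17.5 TPM and at 12.9, 13.7 and 12.1 TPM, and Dnajc15 at 107, 79.4 and 95.1 TPM and at 67.6, 83.8 and 74.3 TPM. The 4 differences lay between -0.37 and -0.31, with adjusted p from 0.205 to 0.233 by limma.

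Mitochondrial chaperones and J proteins as a group were split, with 5 of 10 positive and a median of -0.071. Their summed level was 1182 ± 41.6 TPM on control and 1189 ± 67.8 TPM on PLX5622 (SD, n = 3).

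The difference of a chaperone gene between the labels followed the length of its transcript. Across the 69 genes the Spearman correlation between the log2 difference and the longest annotated transcript was 0.52, and across 12796 tested genes with a length it was 0.49. With the union of all annotated exons as the length these were 0.34 and 0.44. Genes of 1 library share its preparation, so these are descriptions across genes. Of the 11 chaperone genes under 1500 bases, 9 had negative differences, with a median of -0.18. Of the 27 of at least 3000 bases, 22 had positive ones, with a median of 0.26. The medians of all tested genes in these classes were -0.22 and 0.20.

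Control 1 and control 3 deviated towards short genes and the other 4 libraries towards long ones. The correlation of a library's deviation with length over the 69 genes was -0.59, 0.33 and -0.44 in control 1 to 3, and 0.41, 0.28 and 0.47 in PLX5622 1 to 3. Control 1 was the lowest library for 36 of the 69 genes (52.2%) and for 54.8% of all tested genes. Without control 1 the differences of Hspa4l, Dnajb9, Dnaja4 and Hspb3 were 0.43, 0.40, 0.39 and -0.39, and those of Hspa9, Hspa13, Hspa4 and Dnaja2 were 0.20, 0.28, 0.19 and 0.16. After each library was corrected for length by a smooth curve, 43 differences were positive, with a median of 0.041, and no gene was called. RNA quality values are not given in these sources, and the part of length in these differences was not tested further.

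**Figure D4:**
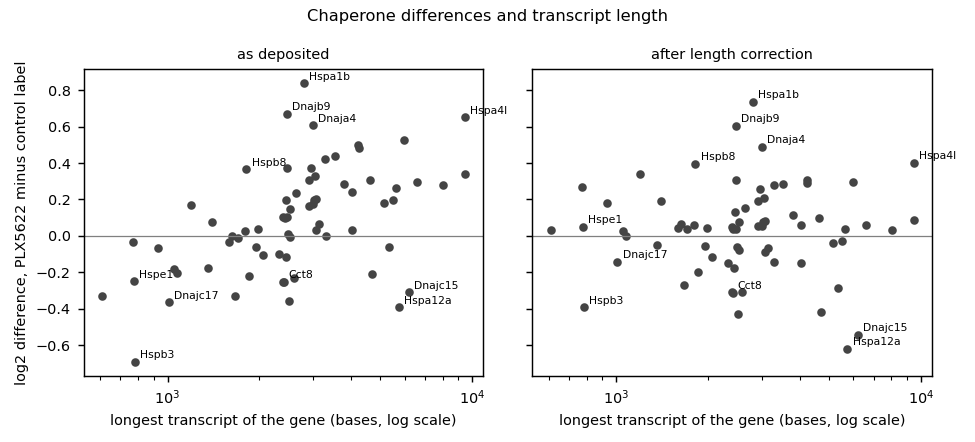
Log2 difference by label (PLX5622 minus control) of each of the 69 tested chaperone genes against the length of its longest annotated transcript in bases (log axis), on the TPM as deposited at left and after the length correction at right; each point is 1 gene. Short genes such as Hspe1 and Hspb3 lie below 0 at left, and long ones such as Hspa4l above it. At right the slope is removed by the correction itself, which fits this same length, and Hspe1 is at 0.051.

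Removing single libraries changed the number of calls. Without control 2, 10 chaperone genes passed as higher and 7 as lower, as did 19.9% and 8.81% of all tested genes, so the chaperone share was again near the background. The 10 were Hspa4l, Dnajb9, Dnajc16, Dnaja4, Dnajc14, Hspa13, Hsp90aa1, Hspa9, Dnajc5 and Hspa4, with differences from 0.44 to 0.88. The 7 were Hspb3, Hspb11, Dnajc19, Dnajc17, Hspe1, Dnajc15 and Dnajc30, with differences from -0.80 to -0.41. All 10 higher genes but Dnajb9 have a longest transcript of at least 3003 bases, and all 7 lower ones but Dnajc15 have one of at most 2499 bases. Without any other single library no chaperone gene passed. Without the libraries labelled control 3 and PLX5622 3 together the count was 0 and the median difference was 0.12.

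The authors' own comparison gave no chaperone gene either. Their deposited table lists 78 of the 79 genes and does not name its numerator, and its fold changes are read here as PLX5622 over control, the sign under which microglial genes are negative in both sources. The smallest adjusted p of a chaperone in the authors' deposited table is 0.999961, and 0.0698% of its 20062 genes pass 0.05. At an unadjusted p under 0.05 it holds Hspb3 alone of the chaperones and 0.847% of all genes. Hspb3 has a log2 fold change of -1.48 with a standard error of 0.69 in the authors' deposited table, at a mean normalized count of 18.1.

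The 2 sources gave different signs for 10 of the 69 tested genes. Over these genes the median log2 fold change in the authors' deposited table is 0.031, with 39 positive, and over all tested genes it is -0.0061. Intervals of 95% were computed here from the fold changes and standard errors of that table. They exclude a log2 change of 1 in either direction for 64 of the 69 genes, and one of 0.5 for 26. Some of the largest differences by label are smaller in that table. Hspa4l has 0.12 with a standard error of 0.30 in the authors' deposited table, and Dnajb9 0.25 with 0.29. Those of Hspa1b and Hspb3 are farther from 0 there than by label, at 1.07 and -1.48.

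As a weighted sum of the 6 libraries, the authors' deposited fold changes of 12710 genes take positive weights from control 3 (0.53), PLX5622 1 (0.40) and PLX5622 2 (0.36). They take negative weights from control 1 (-0.48), control 2 (-0.45) and PLX5622 3 (-0.37), with 90.9% of their variance described. The table therefore sets the libraries labelled control 3 and PLX5622 3 on the sides opposite to their labels, as their microglial transcripts do. Which assignment is right cannot be told apart from these files.

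**Figure D5:**
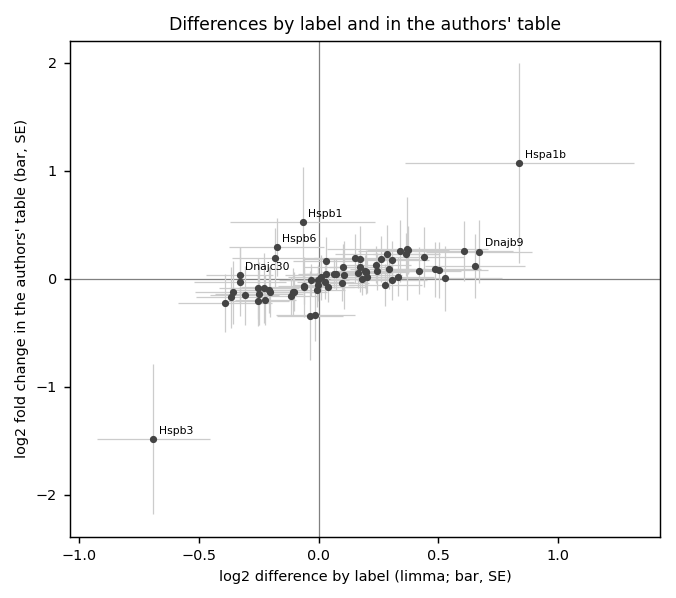
Each of the 69 tested chaperone genes by its log2 difference between the labels (horizontal, limma) and its log2 fold change in the authors' deposited table (vertical), with bars of 1 standard error on both. Most genes lie within 0.5 of 0 on both axes, and Hspa1b and Hspb3 lie farthest out.

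The 48 other genes of protein folding, a list of Hsf factors, Bag proteins, Hsp90 and Hsp70 partners, prefoldins and mitochondrial proteases, held no called gene either. Of its 46 tested genes, 22 had positive and 24 negative differences, with a median of -0.017, and limma called 0. At an unadjusted p under 0.05 there were 5 in each direction. The 2 of highest level were Pfdn5, a prefoldin subunit that delivers chains to the Cct barrel, and Hsbp1, which binds Hsf1. Pfdn5 was at 689.7, 409 and 577 TPM on control diet and at 380.5, 430 and 412 TPM on PLX5622, and Hsbp1 at 489, 419 and 501 TPM and at 411, 432 and 385 TPM. Hsf1 itself was at 20.6, 20.8 and 22.5 TPM and at 21.4, 28.0 and 21.4 TPM, with PLX5622 2 the highest. That library was the highest for 16 of the 46 tested genes of the list, against 23.1% of all tested genes. Of the 4 excluded chaperones of the endoplasmic reticulum, all had positive differences, with a median of 0.47, and 0 were called.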

How the data were processed

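Expression was measured by sequencing of ribosome-bound polyA RNA with non-stranded libraries, per the labels' protocols, so a gene and an antisense gene over it share reads. The submitters' processing notes name the build mm39, the aligner STAR 2.7.10a, featureCounts of Subread 2.0.1, and DESeq2 1.32.0 under R 4.1.0; the annotation is not given in the sources used. The TPM values were deposited by the authors. A second deposited table has, per the file headers, a baseMean (a signal: the mean normalized count), log2 fold changes with standard errors, a test statistic (a score, used only as deposited) and p-values.

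On log2(TPM + 1), differences were fitted with limma 3.58.1 (R 4.3.3, mean-variance trend) to the 13084 genes whose mean reached 1 TPM, with p adjusted over all of them; such values understate changes of low genes. The fit was tested on simulated data. Lengths are the longest transcripts of the GENCODE vM21 basic set, found for 97.8% of tested genes. Of 3 length measures tried, this one was chosen after seeing the data, for its Spearman correlation of 0.91 with the ratio of baseMean to TPM over 9696 genes; the median transcript had 0.83 and the union of all exons, used first, 0.79. The correction is a loess of each library's deviation on log length. Promoters come from RefSeq. Python 3.11.15, SciPy 1.17.1 and matplotlib 3.10.9 were used.

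The chaperone genes, the lists, the tests and the naming rule were chosen with earlier results of these data known. The rule named the 12 chaperones of highest mean TPM, the 6 with the smallest p in each direction, the 2 most abundant of each family and the pair Hspa1a and Hspa1b. Others were named after their values were seen. The alternatives were a pseudocount of 0.1, no filter, size factors, the length correction, a replicate block, and libraries left out.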

Additional observations from a re-analysis of the deposited data

How the results depend on the processing

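Both the count of chaperones called (0 as reported) and the count over all genes (0 as reported) moved under few of the 15 alternatives. With single libraries left out, the chaperone count ranged from 0 to 17, reached without control 2, and the count over all genes from 0 to 3757, with 36 without PLX5622 1 and 3757 without control 2. When control 3 and PLX5622 3 were both left out, 14 genes were called in all. The cause was not tested. The median chaperone difference was -0.035 under size factors and stayed within the spread of the libraries otherwise. Of 525 values of the 35 named genes, 14 passed the threshold, all without control 2, and 33 had the opposite sign. Of these 33, 25 belonged to genes whose reported difference was within its standard error, such as Hspa8, and 8 to genes whose difference exceeded it. Hspa1a turned to -0.055 without PLX5622 2; its values with single libraries left out ranged from -0.055 to 0.72. Under the length correction, with or without the replicate block, Dnajc18 was -0.037, Hspb11 0.033 and Hspe1 0.051. These turns depend on the length measure. In corrections added after seeing the data, the median transcript gave -0.054, -0.028 and -0.012, and the union of exons 0.025, -0.25 and -0.082, with 0 genes called by limma under either. Same-numbered libraries did not deviate together (correlations of -0.033, -0.272 and -0.147). These values cannot show whether the numbers pair the samples. Deviations were taken within each diet label, and the labels of control 3 and PLX5622 3 are in doubt. The replicate block called 0 chaperones and 0 genes in all. TPM keeps no depth, so the depth of each library, and what it limits, is unknown. The mean normalized counts in the authors' deposited table sum to 48089656.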
